A study of Rattus norvegicus with 3 samples.

Results

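The genes described here encode the potassium, sodium, calcium and chloride channels, the CLIC proteins and the sodium pump subunits of cultured ventricular myocytes from newborn rats. They were chosen by gene symbol in the array's annotation: every gene named Kcn, Scn, Cacna, Cacnb, Cacng, Hcn, Clcn, Clic, Atp1a or Atp1b, together with the sulfonylurea receptor genes Abcc8 and Abcc9. The rule itself uses no measured value, though it was set with earlier results of these data known. The rule gave 130 of the 10411 genes that the array could name, carried by 183 probe sets, and 33 of the 130 had more than 1 probe set. Each gene is represented by its brightest probe set, by mean intensity over the arrays.

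Total RNA was measured on 3 arrays, each from ventricular myocytes kept in culture for 48 h. The unstimulated cells had no compound, the second culture had 20 µM phenylephrine, an agonist of α1-adrenergic receptors that makes cultured cardiac myocytes grow, and the third had 1 µM PAMH, as the submitters name their other compound. With 1 array per condition there were no replicates, no standard errors and no tests, and having so few arrays bounds how precise any ratio can be. The compounds were given at different doses and share the unstimulated array, so their values stand side by side and are not compared with each other.

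The action potential of a heart muscle cell is carried by these proteins in turn. Sodium channels give the upstroke, L-type calcium channels hold the plateau and trigger contraction, voltage-gated and inward rectifier potassium channels bring the membrane back to rest, and the sodium pump restores the ion gradients. Most channels are built from a pore-forming subunit and accessory subunits that set its delivery to the membrane and its gating. Newborn myocytes also carry T-type calcium channels and pacemaker channels, which become scarcer in adult working ventricle and are known to return in hypertrophy.

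The labelled cell type was visible in its markers. All 7 of the myocyte markers examined that were on the array were above background on every array, among them Myh6, the α myosin heavy chain, at signal intensities of 10978, 10777 and 13489 on the unstimulated, phenylephrine and PAMH arrays. The 7 summed to 50624, 58458 and 69897 in that order. Of their ratios to the unstimulated array, 3 were above 0 with phenylephrine and 6 with PAMH. All 6 markers of neurons and Schwann cells on the array (Snap25, Nefl, Tubb3, S100b, Th and Dbh) lay below background on every array, with summed intensities between 233 and 283. Of 4 endothelial markers, none was above background on the unstimulated and PAMH arrays and 1 on the phenylephrine array. The 5 macrophage markers summed to 246, 311 and 367 on the unstimulated, phenylephrine and PAMH arrays, with 1, 2 and 2 above background. The 8 fibroblast markers summed to 8347, 6448 and 5002 in the order unstimulated, phenylephrine and PAMH, with 8, 6 and 6 above background. The 6 smooth muscle and pericyte markers summed to 3179, 7319 and 6178, with 5 above background on each array. Of these, Cnn1 (249, 1793 and 1395), Tagln (1755, 3238 and 2276) and Acta2 (752, 1834 and 2151) were higher on both compound arrays. Myh11 read 278, 282 and 178, and Pdgfrb 110, 135 and 137, while Rgs5 was below background throughout, so the markers did not move together. The part of these cell types in the channel results was not tested, and in such cultures fewer cells of a type cannot be told apart from less RNA per cell. Each array was scaled to equal medians. Before scaling, the median signal on the phenylephrine and PAMH arrays stood at log2 ratios of -0.13 and -0.15 to the unstimulated median, and all ratios are relative to that shift. Array 3′ to 5′ ratios of the actin control lay between 1.44 and 1.72.

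A signal intensity of 76.0, percentile 40 of all scaled values, was taken as the background floor. By the brightest probe set of each of the 130 genes, 82 lay below it on all 3 arrays, 31 lay at or above it on all 3, and 17 crossed it. On the unstimulated array 37 of the 130 (28.5%) were at or above the floor, against 66.5% of all 10411 genes, and 42 (32.3%) and 37 (28.5%) were on the phenylephrine and PAMH arrays, against 66.9% and 66.3%. Most channel genes were therefore not measurable here, which says nothing about whether the myocytes made the protein.

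**Figure D1:**
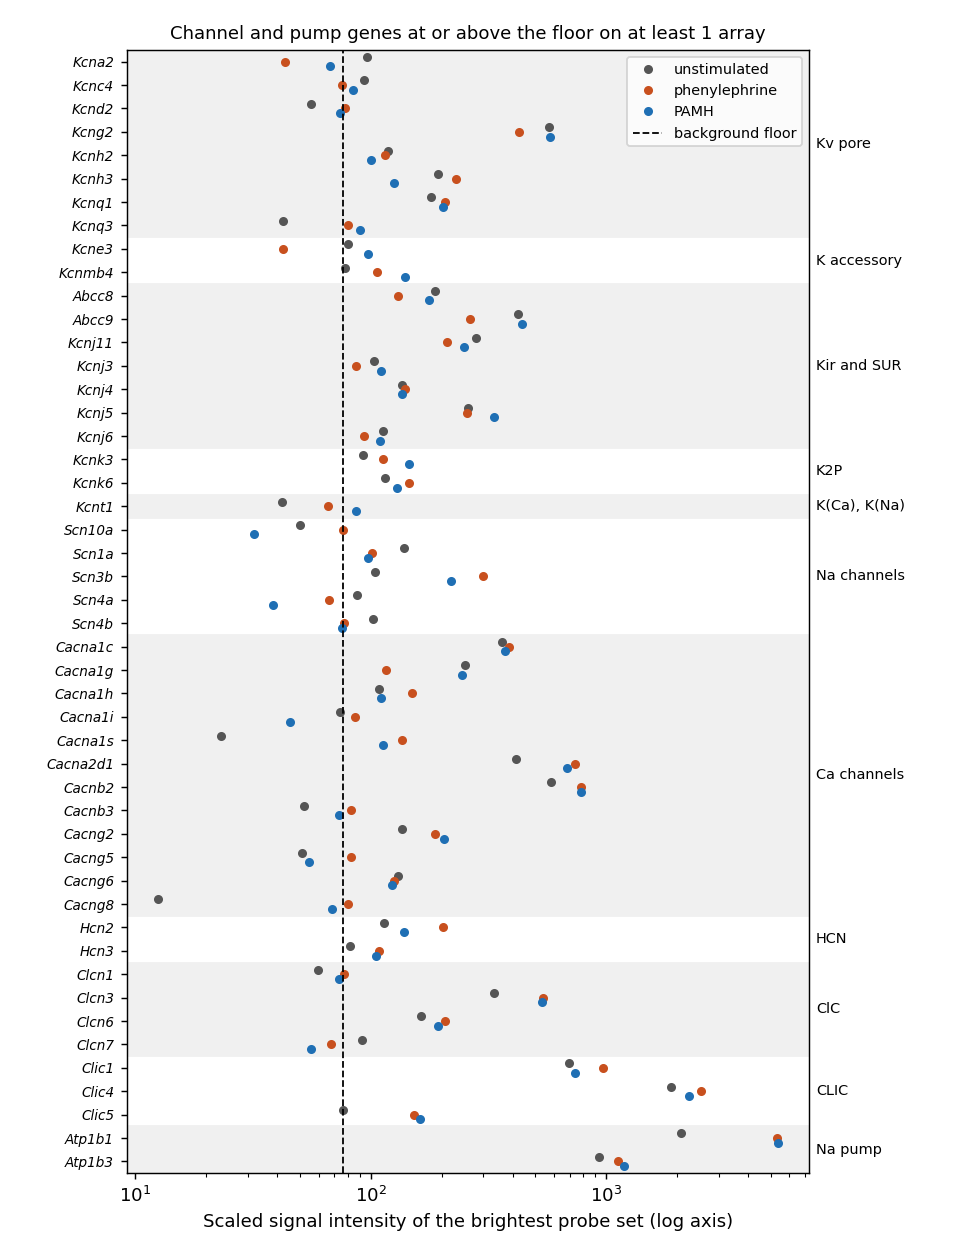
Scaled signal intensity (log axis) of the 48 genes at or above the floor on at least 1 array, by family, with 1 point for each of the unstimulated, phenylephrine and PAMH arrays and the floor of 76.0 as a dashed line. Atp1b1, Scn3b, Cacna2d1 and Clcn3 have both compound points to the right of the unstimulated one, and the phenylephrine point of Cacna1g lies to the left of the others.

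With phenylephrine, 5 of the 32 channel and pump genes that reached the floor in both cultures were at least 1.5-fold higher (Scn3b, Atp1b1, Cacna2d1, Hcn2 and Clcn3) and 2 were at least 1.5-fold lower (Cacna1g and Abcc9). Over all 6571 genes measured in that comparison, 8.9% were at least 1.5-fold higher and 4.54% lower, so the members' 15.6% and 6.25% rest on a few genes each. At 2-fold, 2 members were higher and 1 lower, beside 2.62% and 0.761% of all genes. The members' median log2 ratio was 0.26, against 0.07 for all measured genes, and 20 of 32 (62.5%) were above 0, against 57.6%.

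With PAMH, 7 of 33 measured members were at least 1.5-fold higher (Atp1b1, Scn3b, Kcnmb4, Cacna2d1, Clcn3, Kcnk3 and Cacng2) and Kcnh3 was lower. The background shares were 9.31% higher and 4.17% lower over 6549 genes, beside 21.2% and 3.03% of the members. At 2-fold, 2 members were higher and none lower, beside 2.05% and 0.794% of all genes. The median log2 ratio was 0.16, against 0.10 for all measured genes, and 23 of 33 (69.7%) were above 0, against 61.1% of all measured genes. On the deposited intensities the shares above 0 were 52.9% of members and 44.4% of all genes, so both moved with the scaling. On those intensities 5 members were higher and 3 lower with phenylephrine (15.2% and 9.09%), beside 5.98% and 7.84% of all genes. With PAMH 4 were higher and 2 lower (11.8% and 5.88%), beside 5.33% and 7.84% of all genes. Scaling on percentile 75 gave 7 higher and 1 lower with PAMH (20.6% and 2.94%), beside 7.51% and 5.39% of all genes. Quantile normalization gave 6 and 1 (17.6% and 2.94%), beside 6.45% and 5.72%. Cyclic loess gave 5 and 1 (14.7% and 2.94%), beside 6.43% and 5.47%. The PAMH split therefore moved most when the arrays were left unscaled, and the shares over all genes moved as well.

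The counts are also given apart for the potassium channel genes and for the other members. Among the potassium channel genes, sulfonylurea receptors included, phenylephrine gave 0 of 14 at least 1.5-fold higher and 1 lower, and their median log2 ratio was -0.03. Among the other members, 5 of 18 were higher and 1 was lower (27.8% and 5.56%), around a median of 0.42. Of all measured genes, 8.9% were higher and 4.54% lower with phenylephrine (median 0.07), and 9.31% and 4.17% with PAMH (median 0.10). With PAMH the corresponding counts were 2 higher and 1 lower of 16 potassium channel genes (median 0.04, which turned to -0.12 on the deposited intensities and was also below 0 after scaling on percentile 75 and after quantile normalization) and 5 higher and 0 lower of 17 others (median 0.28). On the deposited intensities the others were 3 higher and 1 lower of 18 (median 0.16), beside 5.33% and 7.84% of all genes. After cyclic loess normalization the others were 3 higher and 0 lower of 18, beside 6.43% and 5.47% of all genes. Atp1b1 and Clic4 are among the others, and genes of their brightness had median log2 ratios of 0.24 with phenylephrine and 0.32 with PAMH. These are counts on single arrays, and a difference between the potassium channel genes and the others was not tested.

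**Figure D2:**
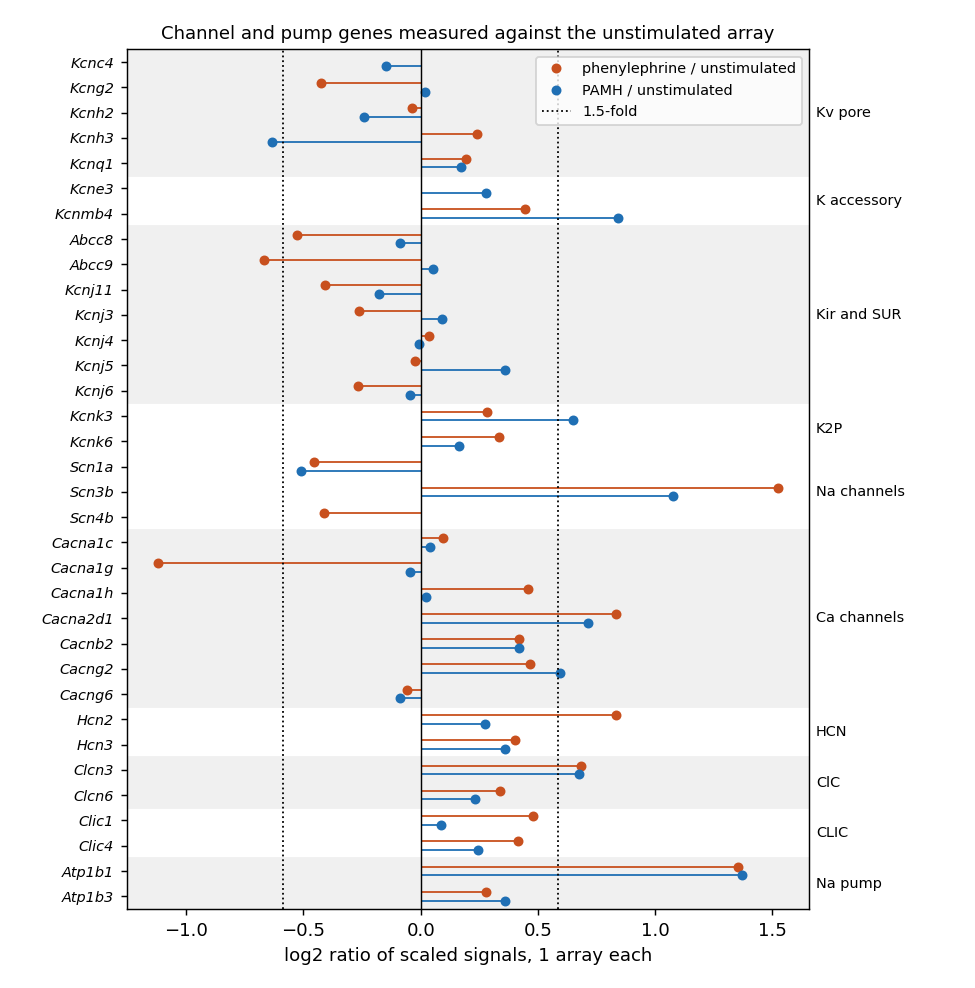
Log2 ratios to the unstimulated array of the 34 genes measured in at least 1 comparison, by family, for phenylephrine (orange) and PAMH (blue), with dotted lines at 1.5-fold. Points stand for 1 array against 1 array; Scn3b and Atp1b1 reach furthest to the right, and Cacna1g with phenylephrine furthest to the left.

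As a yardstick of technical spread, the log2 ratio differed between probe sets of the same gene with a pooled SD of 0.27 over 864 genes for phenylephrine and 0.29 over 867 genes for PAMH. This spread holds no variation between cultures. Just inside the 1.5-fold threshold with PAMH lay Cacng2 at 1.51-fold higher and Kcnh3 at 1.55-fold lower. Just outside it lay Abcc8 with phenylephrine at 1.44-fold lower and Scn1a with PAMH at 1.42-fold lower. A ratio of 1.5-fold is a log2 ratio of 0.58, about the size of 2 such SDs.

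The sodium pump exports sodium and imports potassium, and needs a β subunit for its catalytic α subunit to reach the membrane. Atp1b1, the β1 subunit, had intensities of 2081 on the unstimulated array, 5319 with phenylephrine and 5376 with PAMH. Both compound arrays were high, at 2.56-fold and 2.58-fold. A second probe set read 1771, 4025 and 3853, which gave log2 ratios of 1.18 and 1.12 beside 1.35 and 1.37 for the brightest. Genes of like brightness had median log2 ratios of 0.24 with phenylephrine and 0.32 with PAMH. After quantile normalization, which gives every array the same distribution of signals, Atp1b1 had 1.03 and 1.02 and remained above 2-fold. Atp1b3, the β3 subunit, read 928, 1126 and 1189, with log2 ratios of 0.28 and 0.36. Atp1a4, Atp1b2 and Atp1b4 were below the floor on all arrays. Fxyd1, which encodes phospholemman, a small regulator of the pump in heart, is no member but read 1705, 3487 and 3539, and was 2.05-fold and 2.08-fold higher.

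Voltage-gated sodium channels open the action potential. Of 12 such genes, 7 were below the floor on all arrays (Scn2a, Scn2b, Scn3a, Scn7a, Scn8a, Scn9a and Scn11a). Scn3b, the β3 accessory subunit, which modulates sodium channel gating and membrane level, read 104.0, 299 and 219. It was 2.88-fold higher with phenylephrine and 2.11-fold with PAMH by its only probe set, and its unstimulated signal was near the floor. With an offset of 50 added to every intensity the log2 ratios were 1.18 and 0.81 in place of 1.53 and 1.08, and on the deposited intensities the PAMH value was 0.92, so it was below 2-fold under both. Scn4b, the β4 subunit, went the other way at 102, 76.9 and 75.4, the last below the floor, with a log2 ratio of -0.41 for phenylephrine. Scn1a, a pore subunit best known from brain, read 139, 101 and 97.5, with ratios of -0.45 and -0.51. Scn4a, the skeletal muscle channel, was above the floor only on the unstimulated array (87.3, 66.4 and 38.3), and Scn10a only on the phenylephrine array (49.9, 76.5 and 32.0). Apart from Scn3b and the unstimulated reading of Scn1a, these sodium channel intensities lay at or below 102, near the floor.

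L-type calcium channels of the heart join the pore Cav1.2 to a β subunit and an α2δ subunit. Cacna1c, the gene of Cav1.2, read 360.4, 385 and 371, with log2 ratios of 0.10 and 0.04 that turned to -0.03 and -0.11 on the deposited intensities, and a second probe set had 0.29 and 0.11. Cacna2d1, the α2δ1 subunit, which raises the number of channels at the surface, read 416, 740.3 and 682. It was 1.78-fold higher with phenylephrine and 1.64-fold with PAMH, the latter becoming a log2 ratio of 0.56 on the deposited intensities, just under 1.5-fold, as it was after cyclic loess at 0.58. Cacnb2, the β2 subunit, read 582, 779 and 778, and its 3 probe sets had log2 ratios from 0.20 to 0.42 with phenylephrine and from 0.18 to 0.42 with PAMH. The ratios of Cacna2d1 lay above those of both Cacna1c probe sets, while those of Cacnb2 overlapped them with phenylephrine.

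T-type channels open at low voltage and serve pacemaking and growth signals in immature heart. Cacna1g, the gene of Cav3.1, read 252, 116 and 245. It was low on the phenylephrine array alone, 2.18-fold lower, while the PAMH ratio was -0.04 on the log2 scale. The 5 alternatives that could move this value, 4 scalings and the offset of 50, put it between -1.25 and -0.86. Cacna1h, the gene of Cav3.2, read 108, 149 and 110.4, with log2 ratios of 0.46 and 0.02, the second of which turned to -0.13 on the deposited intensities. The T-type gene Cacna1i crossed the floor on the phenylephrine array (74.4, 85.7 and 45.3).

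Cacna1s, the pore of the skeletal muscle L-type channel, was below the floor at 23.2 on the unstimulated array and above it at 136 with phenylephrine and 113 with PAMH. No fold is given, since the unstimulated reading was background and neither compound reading reached 295, percentile 75, the level asked of a bound. Cacnb3, Cacng5 and Cacng8 were above the floor only with phenylephrine, at 82.1, 82.5 and 79.7, all within 10 units of the floor. Of the γ subunit genes, whose products include partners of glutamate receptors in brain, Cacng2 read 136, 188 and 205. Its PAMH ratio of 1.51-fold lay just inside the threshold, at 0.592 against 0.585 on the log2 scale. In 3 of 8 alternatives, the other floors and no filter, that value is kept by construction. Every alternative that could move it put it below 1.5-fold. It was 0.437 on the deposited intensities, 0.527 after scaling on percentile 75 and 0.580 after quantile normalization. After cyclic loess it was 0.568, and with the offset of 50 it was 0.456. A second Cacng2 probe set was below the floor on all arrays. Cacng6 read 131, 125 and 123, with log2 ratios of -0.06 and -0.09. By their brightest probe set, the other 12 calcium channel genes were below the floor throughout: Cacna1a, Cacna1b, Cacna1d, Cacna1e, Cacna1f, Cacna2d3, Cacnb1, Cacnb4, Cacng1, Cacng3, Cacng4 and Cacng7. A dimmer probe set of Cacna1a read 79.5 on the phenylephrine array, just above the floor.

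Hyperpolarization-activated channels carry the pacemaker current. Hcn2, the form best known from ventricle, read 114, 203 and 138, which was 1.78-fold higher with phenylephrine and a log2 ratio of 0.28 with PAMH. Hcn3 read 82.0, 108 and 105, with log2 ratios of 0.40 and 0.36. Hcn4, the main pacemaker form of the sinus node, was below the floor on all arrays. The unstimulated reading of Hcn3 was within 10 units of the floor, and the phenylephrine ratio of Hcn2 was between 0.62 and 0.84 over the same 5 alternatives.

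The ClC family holds membrane channels and exchangers of endosomes and lysosomes. Clcn3, an endosomal exchanger, read 334, 536 and 532, 1.61-fold and 1.59-fold higher. Its further probe sets had log2 ratios of 0.50 and 0.34 with phenylephrine and 0.74 and -0.01 with PAMH, and the mean over its probe sets was 0.51 and 0.47, below 1.5-fold. On the deposited intensities both ratios were also below 1.5-fold, at 0.56 and 0.52, as was the PAMH ratio after quantile normalization and cyclic loess, at 0.57 under each. Clcn6 read 164, 207 and 192, with log2 ratios of 0.34 and 0.23. Clcn7, the lysosomal exchanger, was above the floor only on the unstimulated array (91.7, 67.7 and 55.6), and Clcn1, the skeletal muscle channel, only with phenylephrine at 76.6, against 59.5 and 73.0. Clcn2, Clcn4 and Clcn5 were below it on all arrays.

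CLIC proteins are small proteins found both free in the cell and at membranes, and several bind the actin cytoskeleton. Clic4 read 1890.5, 2517 and 2239, with log2 ratios from 0.41 to 0.56 over its 3 probe sets with phenylephrine and from 0.24 to 0.63 with PAMH. Its PAMH ratio by the brightest probe set turned to -0.08 after quantile normalization. Clic1 read 693, 965 and 735, log2 ratios of 0.48 for phenylephrine and 0.09 for PAMH, the second of which turned to -0.09 after cyclic loess normalization. Clic5 read 76.0, 153 and 162. Its unstimulated reading lay just under the floor, at 0.999 of it, so it has no ratio in the counts above. Under the 6 alternatives that measured it, among them quantile normalization with log2 ratios of 1.02 and 1.07, its ratios lay between 0.89 and 1.02 with phenylephrine and between 0.94 and 1.09 with PAMH. Clic3 was below the floor on all arrays.

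Inward rectifier channels hold the resting potential, and the KATP channel among them is built from a Kir6 pore and a sulfonylurea receptor and closes when ATP is high. All 7 of the measured genes of this family were above the floor on every array, and 6 of 7 had a ratio below 0 with phenylephrine. Their median log2 ratio was -0.27. Over all genes measured with phenylephrine, 57.6% had a ratio above 0. By the mean over probe sets Kcnj5 had 0.10, and a dimmer probe set of Kcnj6 went the other way, reading 46.8 unstimulated, below the floor, and 146 with phenylephrine, so the count rests on the brightest probe sets. Of the KATP genes, Kcnj11, the pore Kir6.2, read 281, 212 and 248, with phenylephrine ratios of -0.41, -0.50 and -0.11 from its 3 probe sets and PAMH ratios of -0.18, -0.12 and 0.16. Abcc9, the receptor SUR2, read 421, 265 and 437. It was 1.59-fold lower with phenylephrine by its brightest probe set, but a second had a log2 ratio of 0.01. The remaining probe set went the way of the brightest, from 104 unstimulated to below the floor with phenylephrine, a log2 ratio of -1.37 when the floor is ignored, and had -0.05 with PAMH. With the offset of 50 the brightest probe set gave -0.58, just short of 1.5-fold. Abcc8, the receptor SUR1, read 188, 131 and 177, with log2 ratios of -0.53 and -0.09, just under the 1.5-fold threshold with phenylephrine. With PAMH, 3 of the 7 genes were above 0 and 4 below by their brightest probe sets, and the ratios ran from -0.18 to 0.36. On the deposited intensities 1 was above 0 and 6 were below.

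The genes Kcnj3 and Kcnj5 encode the subunits of the atrial channel that acetylcholine opens through G proteins. Kcnj5 read 259.5, 255 and 333, with log2 ratios of -0.02 and 0.36. Kcnj3 read 104, 86.3 and 110.4, with ratios of -0.26 and 0.09. A second Kcnj3 probe set had 0.13 with phenylephrine. With PAMH it went the other way, from 103 unstimulated to 46.1, below the floor, a log2 ratio of -1.15 when the floor is ignored. Kcnj4 read 136, 139 and 135, and Kcnj6 113, 94.0 and 109.8. Kcnj2, the main resting channel of ventricle, and Kcnj8, the other KATP pore, were below the floor on all arrays, as were Kcnj1, Kcnj9, Kcnj10, Kcnj12, Kcnj13, Kcnj14, Kcnj15 and Kcnj16.

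Voltage-gated potassium channels end the action potential. Of 30 pore genes, 22 were below the floor on all arrays, among them Kcna4, Kcna5 and Kcnd3 of the early repolarizing currents. The rest of the 22 were Kcna1, Kcna3, Kcna6, Kcnb2, Kcnc1, Kcnc2, Kcnd1, Kcng3, Kcnh1, Kcnh4, Kcnh5, Kcnh6, Kcnh7, Kcnh8, Kcns1, Kcns2, Kcns3, Kcnv1 and Kcnv2. Kcnq1, the pore of the slow delayed rectifier, read 180.3, 206 and 203, with log2 ratios of 0.19 and 0.17. Kcnh2, the pore of the rapid delayed rectifier, read 118, 115 and 99.8, with ratios of -0.04 and -0.24. Kcng2, a silent subunit that joins other channels, read 571, 426 and 579, with ratios of -0.42 and 0.02. Its second probe set had -0.43 and -0.20, so the PAMH direction was not settled.

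Kcnh3, a channel best known from forebrain, read 194, 229 and 125. It was 1.55-fold lower with PAMH and had a log2 ratio of 0.24 with phenylephrine, from a single probe set; with the offset of 50 the PAMH value was -0.48, short of 1.5-fold. Kcnd2, the pore of the transient outward current in rodents, crossed the floor only with phenylephrine (55.7, 77.9 and 74.2). Kcnq3 was above the floor with both compounds (42.4, 80.1 and 90.2), Kcna2 only on the unstimulated array (96.1, 43.3 and 67.0), and Kcnc4 on the unstimulated and PAMH arrays (93.6, 75.7 and 84.4). The last of these had a PAMH log2 ratio of -0.15.

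Accessory subunits of potassium channels were mostly below the floor, 10 of 12: Kcnab1, Kcnab2, Kcnab3, Kcne1, Kcne2, Kcnip1, Kcnip2, Kcnip3, Kcnip4 and Kcnmb1. Kcnmb4, the β4 subunit of the large-conductance calcium-activated channel, read 77.9, 106 and 139. It was 1.79-fold higher with PAMH and had a log2 ratio of 0.45 with phenylephrine, from an unstimulated reading at 1.02 times the floor. With the offset of 50 the PAMH log2 ratio was 0.57, just short of 1.5-fold. Its pore partner Kcnma1 was below the floor on all arrays. Kcne3, a small subunit that joins several pores, read 80.1, 42.6 and 97.1, with a PAMH log2 ratio of 0.28.

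The two-pore-domain channels give the leak current at rest. Kcnk3, the acid-sensitive TASK-1 channel, read 92.4, 112 and 145, 1.57-fold higher with PAMH and a log2 ratio of 0.28 with phenylephrine. That value fell short of 1.5-fold on the deposited intensities, at 0.50 on the log2 scale, and with the offset of 50, at 0.45. Its further probe sets were below the floor. Kcnk6 read 115, 145 and 129, with ratios of 0.33 and 0.16. Kcnk2, the stretch-sensitive TREK-1 channel, was below the floor on all arrays, as were Kcnk1, Kcnk4, Kcnk5, Kcnk9, Kcnk10, Kcnk12, Kcnk13 and Kcnk15. Of the calcium- and sodium-activated channels, Kcnma1, Kcnn1, Kcnn3 and Kcnn4 were below the floor, and Kcnt1, the sodium-activated channel, was above it only with PAMH (41.9, 66.1 and 86.6).

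**Figure D3:**
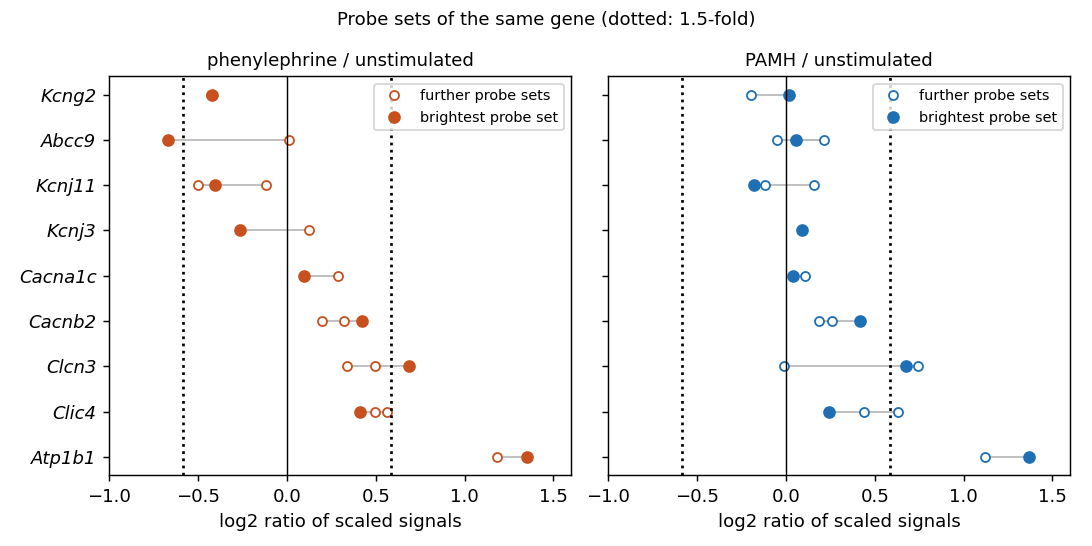
Log2 ratios of each probe set at or above the floor on both arrays, for the 9 genes with more than 1 such probe set in at least 1 comparison; filled points are the brightest probe set, open points the others, and dotted lines mark 1.5-fold. Both probe sets of Atp1b1 lie past 1.5-fold with each compound, while those of Abcc9 with phenylephrine and of Clcn3 with PAMH spread from near 0 to past the line.

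Over the 9 members with more than 1 measured probe set in the phenylephrine comparison, the pooled SD between probe sets was 0.20, and over the 8 in the PAMH comparison 0.22. The ratios of Atp1b1 were above 1.0 by either probe set. The 1.5-fold calls on Abcc9 and Clcn3 each included a probe set near 0 or under the threshold.

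**Figure D4:**
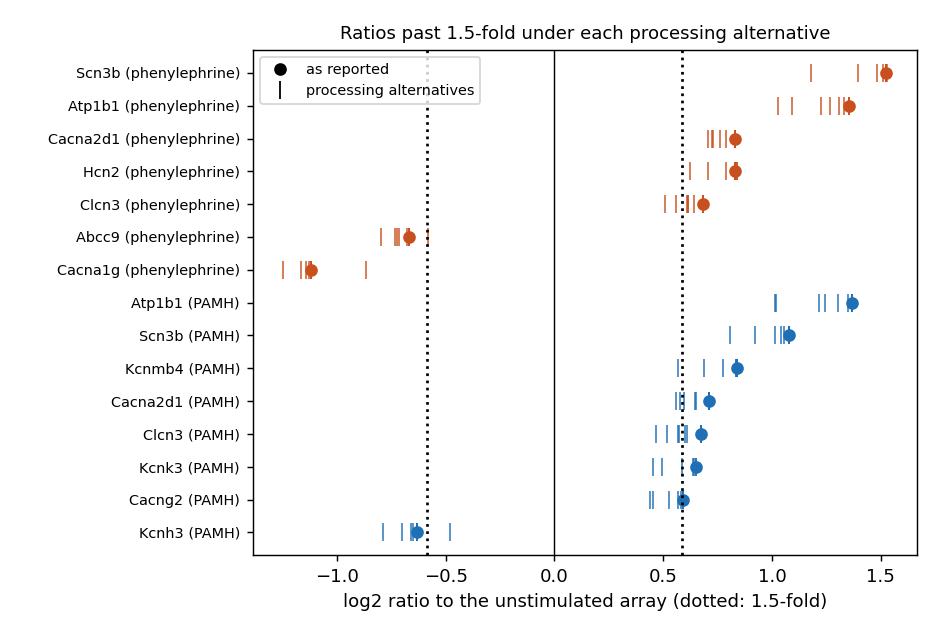
Log2 ratio to the unstimulated array of every member past 1.5-fold, as reported (points) and under each processing alternative that gave a value (ticks), with phenylephrine in orange and PAMH in blue. No tick lies on the other side of 0, and those of Scn3b, Atp1b1, Cacna1g and Hcn2 and of Cacna2d1 with phenylephrine stay past the dotted 1.5-fold lines. Ticks for other floors and for no filter repeat the reported value by construction.

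The upstream sequences of the members past 1.5-fold are shown for the 6 with an entry in RefSeq's promoter table on the GRCr8 build, where 92 of the 130 genes had 1. Printed are the 250 bases before the first listed start site of Cacna2d1 and Clcn3, which were higher with both compounds, of Cacng2 and Kcnmb4, higher with PAMH, of Hcn2, higher with phenylephrine, and of Abcc9, lower with phenylephrine, read 5′ to 3′ on the gene's strand. Atp1b1, Scn3b, Cacna1g, Kcnh3 and Kcnk3 are named only. Capitals mark matches on either strand to 6 motifs. The M-CAT element (CATTCC) is bound by TEAD factors and known from α1-adrenergic responses of heart muscle genes. The GATA site (AGATAA) is bound by GATA factors such as the cardiac GATA4. The AP-1 site (TGANTCA) is bound by Fos and Jun, and the cyclic AMP response element (TGACGTCA) by CREB. The GC box (GGGCGG) is bound by Sp1 and the TATA box (TATAAA) by the general transcription machinery.
Cacna2d1, GRCr8 chr4:20330148-20330397, minus strand: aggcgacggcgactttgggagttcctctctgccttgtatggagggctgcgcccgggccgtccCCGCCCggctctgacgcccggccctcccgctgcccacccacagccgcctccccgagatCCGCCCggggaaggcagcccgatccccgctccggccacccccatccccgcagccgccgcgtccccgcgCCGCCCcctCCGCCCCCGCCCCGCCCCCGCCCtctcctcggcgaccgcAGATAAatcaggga
Clcn3, GRCr8 chr16:34137754-34138003, plus strand: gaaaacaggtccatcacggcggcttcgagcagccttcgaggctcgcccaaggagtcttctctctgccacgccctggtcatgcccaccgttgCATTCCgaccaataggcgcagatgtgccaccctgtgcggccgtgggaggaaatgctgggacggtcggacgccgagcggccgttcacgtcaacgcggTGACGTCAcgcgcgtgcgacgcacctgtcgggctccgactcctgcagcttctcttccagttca
Cacng2, GRCr8 chr7:111577758-111578007, minus strand: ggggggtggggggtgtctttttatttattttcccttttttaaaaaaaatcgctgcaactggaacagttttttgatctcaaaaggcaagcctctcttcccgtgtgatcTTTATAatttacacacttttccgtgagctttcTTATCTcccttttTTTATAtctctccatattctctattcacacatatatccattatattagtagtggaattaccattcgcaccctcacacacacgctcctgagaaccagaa
Kcnmb4, GRCr8 chr7:54005102-54005351, minus strand: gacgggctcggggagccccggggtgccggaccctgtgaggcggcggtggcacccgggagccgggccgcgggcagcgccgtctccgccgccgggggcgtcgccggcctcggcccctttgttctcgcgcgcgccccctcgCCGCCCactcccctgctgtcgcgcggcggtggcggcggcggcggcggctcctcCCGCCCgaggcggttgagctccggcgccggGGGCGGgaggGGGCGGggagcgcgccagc
Hcn2, GRCr8 chr7:10639458-10639707, minus strand: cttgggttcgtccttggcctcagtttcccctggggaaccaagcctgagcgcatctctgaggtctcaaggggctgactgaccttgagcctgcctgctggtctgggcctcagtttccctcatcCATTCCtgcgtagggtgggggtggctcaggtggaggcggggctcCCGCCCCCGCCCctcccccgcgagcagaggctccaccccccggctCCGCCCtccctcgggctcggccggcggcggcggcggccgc
Abcc9, GRCr8 chr4:177386349-177386598, minus strand: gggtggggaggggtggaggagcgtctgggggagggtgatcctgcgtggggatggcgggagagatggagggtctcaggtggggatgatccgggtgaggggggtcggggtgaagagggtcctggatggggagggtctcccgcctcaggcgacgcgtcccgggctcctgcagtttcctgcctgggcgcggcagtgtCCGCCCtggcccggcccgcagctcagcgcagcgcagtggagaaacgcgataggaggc

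The Cacna2d1 window was 77.2% G and C, with 7 GC boxes and 1 GATA match at position -14 from the start site. A pair of its GC boxes shares 1 base. Clcn3 had 1 M-CAT match and 1 cyclic AMP response element, which reads the same on both strands. Hcn2 had 1 M-CAT match and 3 GC boxes, and Abcc9 had 1 GC box. Cacng2 had 1 GATA match and 2 TATA matches, at positions -143 and -98 from the start site, and Kcnmb4 had 4 GC boxes. None of the 6 windows held an AP-1 match. Over the 8630 genes on the array with a window, 10.2% held an M-CAT match, 6.49% a GATA match, 4.90% an AP-1 match, 2.65% a cyclic AMP response element, 56.2% a GC box and 8.37% a TATA match. Among the 92 members, 11 held an M-CAT match, 9 a GATA match, 3 an AP-1 match, 1 a cyclic AMP response element, 50 a GC box and 7 a TATA match, so that 54.3% held a GC box. A match describes letters in the window, not a bound site.

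Genes that work with the channels were examined from a separate list of 53, of which 40 were on the array and 29 were measured in each comparison. With phenylephrine 4 were at least 1.5-fold higher and 6 lower (13.8% and 20.7%), beside 8.9% and 4.54% of all measured genes. Their median log2 ratio was -0.02. With PAMH 8 were higher and 2 lower (27.6% and 6.90%), beside 9.31% and 4.17%, and the median was 0.05. This list was drawn up with earlier results of these data known, and the shares were not tested. Besides Fxyd1, the potassium-chloride cotransporter gene Slc12a7 was 2.96-fold and 2.69-fold higher with phenylephrine and PAMH, and the cardiac transcription factor gene Nkx2-5 1.63-fold and 1.79-fold. Fxyd5, another pump regulator, was 1.91-fold higher with phenylephrine and had a PAMH log2 ratio of 0.05, from an unstimulated reading of 78.0 near the floor.

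Gja5, the gap junction protein connexin 40 of atrium and conduction system, read 642, 267 and 183, which was 2.41-fold and 3.51-fold lower. Lrrc10, a cardiac leucine-rich repeat protein, was 3.24-fold and 3.42-fold lower. With phenylephrine, Nedd4l, a ubiquitin ligase that removes sodium channels from the membrane, was 1.77-fold lower, the cation channel gene Trpc1 1.57-fold, the sodium channel partner Fgf13 1.56-fold, and the connexin gene Gja3 had a log2 ratio of -0.68. With PAMH, Popdc2 was 1.94-fold higher, the calsequestrin gene Casq2 1.73-fold, the sodium-calcium exchanger gene Slc8a1 1.70-fold, the calcium channel inhibitor Rrad 1.70-fold and the junctional protein gene Jph2 1.56-fold. These related genes went in both directions with each compound, with medians close to 0.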

How the data were processed

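Expression was measured on 3 rat arrays, 1 per condition. Deposited were signal intensities on a linear scale for 15923 probe sets, 57 of them controls; which software the authors used to make these values is not given in the sources used here, and no detection calls were used. Of 15866 other probe sets, 12783 had 1 symbol in the platform annotation, 312 several and 2771 none, and only the first were used. All 183 member probe sets were found in the RefSeq gene table with the same symbol.

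Each array was multiplied by 1 factor (0.937, 1.02 and 1.04 for unstimulated, phenylephrine and PAMH) to equal medians of non-control probe sets. Ratios were computed where both arrays reached the floor, percentile 40. Values were planned for members past 1.5-fold, the 3 brightest of each family and a panel of cardiac channels. Those among them that lay below the floor on all arrays are given by name only. The remaining members that reached the floor are given with values too, which was decided after their values were seen, and the others by name only. Some genes of the panel are not reported here. Members, gene lists and alternatives were chosen with earlier results of these data known. The ratio step was tested on simulated data, with changes set only in brighter probe sets and each probe set taken as its own gene. That test therefore did not cover signals near the floor or the choice of probe set. Python 3.11.15, numpy 2.4.6, pandas 2.3.3, R 4.3.3 and limma 3.58.1 were used. The alternatives were other scalings, floors at percentile 25 and 50, other uses of probe sets, an offset of 50 and no filter.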

Additional observations from a re-analysis of the deposited data

How the results depend on the processing

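No paired analysis was possible because each group had 1 array. None of the 15 ratios past 1.5-fold changed sign under any of the 10 alternatives that gave a value, though the floors and, for genes with 1 probe set, the probe set choices leave a value as it is by construction. The number of genes at or above the floor on at least 1 array was 48, and 83 with the floor at percentile 25, 31 at percentile 50 and 30 over genes with 1 probe set. With phenylephrine, the 5 higher and 2 lower genes became 11 and 4 with the floor at percentile 25, 3 and 1 over genes with 1 probe set and 37 and 15 without a filter on dim signals, where most readings are background; with an offset of 50 the lower genes became 1. With PAMH, the 7 higher and 1 lower genes became 4 and 2 on the deposited intensities and 34 and 24 without a filter. With the floor at percentile 50 and with the mean over probe sets 4 were higher with PAMH (18.2% and 14.8%), beside 9.18% and 9.09% of all genes. Over genes with 1 probe set 3 were higher (16.7%), beside 9.18%. With an offset of 50, 4 were higher and 0 lower (12.1% and 0%), beside 6.84% and 2.41%. With the floor at percentile 25 the lower genes became 3 (4.84%), beside 5.64%. Shares over all genes moved as well. With phenylephrine they were 9.72% higher and 5.61% lower with the floor at percentile 25, beside 16.9% and 6.15% of members. Without a filter they were 14.1% and 10.5%, beside 28.5% and 11.5% of members. Over genes with 1 probe set they were 8.99% and 4.19%, beside 17.6% and 5.88% of members. With an offset of 50 the lower share was 2.7%, beside 3.1% of members. For PAMH without a filter they were 14.3% and 11.7%, beside 26.2% and 18.5% of members. Other floors and single-probe-set genes change which genes are counted. For the other settings the cause of a changed count was not tested. Signal over background limits most members: 82 of 130 lay below the floor on all 3 arrays, and 34 were measured in at least 1 comparison. Readings just above the floor carry the least certain ratios.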
